A study of Rattus norvegicus with 6 samples.

Results

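The miRNAs described here come from the X-linked hairpins miR-532, miR-188, miR-362, miR-501 and miR-500, with miR-652 from another hairpin of the same chromosome. The set of stems was chosen with earlier results of these data known, and its rows were then taken by name alone. They are every row of the count table with the stem miR-188, miR-362, miR-500, miR-501, miR-532, miR-652 or miR-660 and any strand suffix. This gave 12 of 650 mature miRNAs, 10 from the 5 neighbouring hairpins and 2 from miR-652, and 0 rows matched miR-660. Small RNA had been counted in trigeminal ganglia of Sprague-Dawley rats aged 8 to 10 weeks, taken from the operated side on day 14. The 3 CCI-ION libraries came from rats with chronic constriction injury of the infraorbital nerve, in which loose silk ligatures are tied around the left nerve as a model of trigeminal neuropathic pain. The 3 sham libraries came from rats whose nerve was exposed on one side and not ligated, so both groups had surgery. The labels do not say that each library is a separate animal, so a p-value here reflects how these libraries vary, and part of that may be technical.

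A miRNA hairpin is cut into a duplex of a 5p and a 3p strand. Usually one of them is kept in an Argonaute protein, where bases 2 to 8, the seed, pair with target mRNAs. The hairpins of miR-532, miR-188, miR-362, miR-501 and miR-500 follow each other in this order, on the same strand, within the span of Clcn5, the gene of a chloride-proton exchanger of endosomes, in the RefSeq annotation of GRCr8. The miR-652 hairpin lies within the span of Tmem164 on the same chromosome. In rat neurons, miR-501-3p is known to act locally in dendrites on the AMPA receptor subunit GluA1, and miR-188 to act on neuropilin-2 at synapses. In rat spinal dorsal horn, miR-500 has been linked to loss of the GABA-making enzyme GAD67 in neuropathic pain.

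The mature strands are shown first because seeds and near-identical copies decide which of these miRNAs could share targets or reads. Sequences are those of the deposited count table, 5′ to 3′, written with U for T and with the seed in capitals; the prefix rno- marks rat and is left out below. Of the 12, 11 had a mature entry in the RefSeq table (GRCr8), each with the same sequence. The strands with the seed AUGCACC or AUCCUUG form pairs within the cluster, and the other strands shown each carry a seed of their own among the members.
rno-miR-532-5p: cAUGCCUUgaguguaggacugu
rno-miR-532-3p: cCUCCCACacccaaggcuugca
rno-miR-188-5p: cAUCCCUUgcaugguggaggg
rno-miR-362-5p: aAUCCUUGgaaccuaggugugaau
rno-miR-500-5p: aAUCCUUGcuaucugggugcuuag
rno-miR-362-3p: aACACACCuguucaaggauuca
rno-miR-501-3p: aAUGCACCcgggcaaggauuugg
rno-miR-500-3p: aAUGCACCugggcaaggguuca
rno-miR-652-3p: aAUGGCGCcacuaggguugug

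miR-500-3p and miR-501-3p differ at 4 of the 22 positions compared, as U9C, G18A, C21U and A22G, with the base of miR-500-3p first and positions counted from 1 at the 5′ end. Read from base 2 of miR-532-3p, miR-188-3p differs from it at 4 of 20 positions. No other listed miRNA came within 4 differences of a member over at least 18 bases, with starts shifted by up to 2 bases. The sources used here do not give how reads with mismatches were assigned, so counts of miR-500-3p and miR-501-3p are uncertain in how they divide between the 2. The hairpins of this pair are also the most alike of the 6, with 72.9% identity in a global alignment, against 64.3% for miR-532 and miR-188 and 47.7% to 63.3% for the other pairs. The hairpins of miR-532 and of the miR-501 and miR-500 pair are shown with the mature strands in capitals, since their strand use differs.
miR-532 hairpin: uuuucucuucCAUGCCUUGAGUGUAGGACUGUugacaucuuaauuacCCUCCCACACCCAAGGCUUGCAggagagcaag
miR-501 hairpin: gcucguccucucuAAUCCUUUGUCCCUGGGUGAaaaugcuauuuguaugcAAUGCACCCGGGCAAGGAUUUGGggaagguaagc
miR-500 hairpin: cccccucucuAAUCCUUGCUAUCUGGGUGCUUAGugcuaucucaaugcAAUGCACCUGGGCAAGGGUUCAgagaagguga

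Total miRNA counts were 6420434 to 11014970 in the CCI-ION libraries and 10084327 to 12560545 in the sham libraries. Relative to these totals, before TMM scaling, 3 counts, taken as the floor of detection, correspond to 0.239 to 0.467 CPM. Levels are given as CPM, miRNA counts relative to the library's total after TMM scaling between libraries. Sensory neuron miRNAs marked the tissue as labelled, the summed level of miR-183-5p, miR-96-5p and miR-182 being 34692 to 45625 CPM in CCI-ION and 35126 to 44685 CPM in sham. Muscle miRNAs were also present in every library, at 3342 to 8419 CPM summed over 5 of 5 listed members in CCI-ION and 5198 to 10674 CPM in sham. Leukocyte miRNAs, 5 of 5 listed members, summed to 284.2 to 331 CPM in CCI-ION and 222.3 to 266.2 CPM in sham. The leukocyte sums did not overlap between the groups. Those of every other cell type list looked at did overlap: sensory neuron, muscle, neuron, erythroid, fibroblast and mural, epithelial, endothelial and glia. Singly, 13.8% of all tested miRNAs did not overlap in either direction, and no such share was computed for sums. Among the listed leukocyte members, miR-223-3p did overlap, at 5.26 to 8.85 CPM in CCI-ION and 4.51 to 7.33 CPM in sham. The other listed members are not given singly here. The ganglia were measured in bulk, so fewer cells of a type and less miRNA per cell cannot be told apart.

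Most counts of the cluster came from 1 strand of 1 hairpin. miR-532-5p averaged 662 CPM over the 6 libraries, rank 87 of the 650 listed miRNAs, and held 86.0% of all counts of the 5-hairpin cluster. miR-652-3p followed at 170 CPM, then miR-501-3p at 36.4 and miR-532-3p at 34.5 CPM, whose ranges over libraries overlapped. miR-500-3p averaged 14.0 CPM, miR-362-3p 9.08 and miR-362-5p 7.45 CPM, each overlapping its neighbour in this order. miR-188-5p stood apart at the low end with 1.53 CPM, and miR-532-5p, miR-652-3p and miR-188-5p overlapped none of the members next to them in the order. Summed over both strands, the mean level of the miR-532 hairpin was 19.1 times that of miR-501, 42.1 times that of miR-362, 49.3 times that of miR-500 and 447 times that of miR-188. Thus hairpins that lie next to each other within the span of 1 gene differed widely in mature level as counted.

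The remaining strands were at or below 3 counts in every library. miR-500-5p had 0, 1 and 3 counts in the CCI-ION libraries and 1, 1 and 1 in the sham libraries. miR-501-5p had 3, 1 and 0 counts in CCI-ION and 0, 1 and 1 in sham. miR-652-5p had 0, 2 and 0 counts in CCI-ION and 3, 1 and 0 in sham, and miR-188-3p had 0 in each CCI-ION library and 1, 0 and 1 in sham. These 4 miRNAs were left out of the test by the filter on low counts, and no fold change is given for them. The 8 others passed the filter in all 6 libraries.

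**Figure D1:**
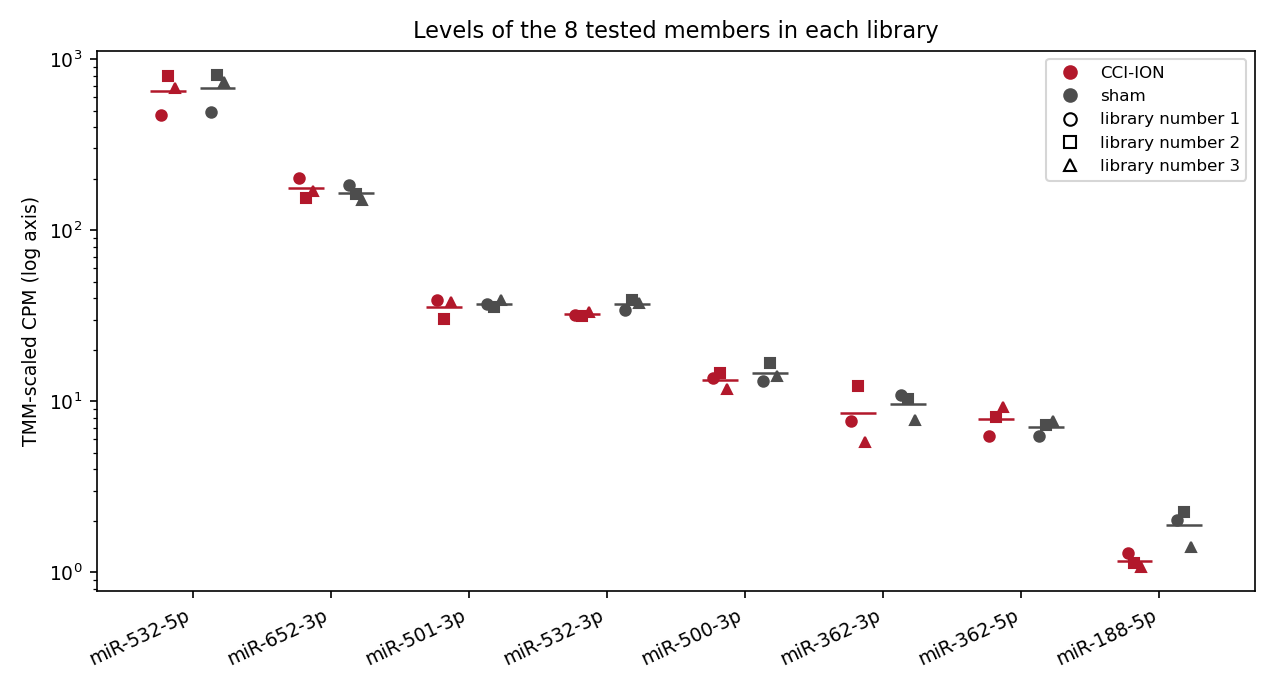
TMM-scaled CPM (log axis) of the 8 tested members, CCI-ION libraries in red on the left and sham libraries in grey on the right of each pair. Symbols give the library number and horizontal lines the group mean (n = 3 each). miR-532-5p lay between 470.8 and 803 CPM and miR-188-5p between 1.08 and 2.24 CPM.

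Which strand held most of the counts changed along the cluster. In miR-532 the 5p strand held 93.7%, 96.2% and 95.3% of the hairpin's counts in CCI-ION libraries 1 to 3 and 93.5%, 95.4% and 95.2% in sham libraries 1 to 3. In miR-188 the 5p strand held 30 of 30 counts in CCI-ION (exact Clopper-Pearson 95% interval 88.4% to 100%) and 63 of 65 in sham (89.3% to 99.6%). At the other end of the cluster the order was turned round: the 3p strand held 99.6% of the miR-501 counts in CCI-ION and 99.8% in sham, and 98.8% of the miR-500 counts in CCI-ION and 99.4% in sham. miR-652 was as one-sided, with its 3p strand at 99.9% or more of the summed counts in both groups.

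miR-362, in the middle of the cluster, had substantial counts from both strands. Its 5p strand held 45.1%, 39.7% and 61.6% of the hairpin's counts in CCI-ION libraries 1 to 3 and 36.6%, 41.3% and 49.7% in sham libraries 1 to 3. CCI-ION library 3 was the only library in which miR-362-5p exceeded miR-362-3p, with 69 against 43 counts. The shares of the other CCI-ION libraries lay within the range of the sham libraries. These binomial intervals, and the floor of 3 counts, cover counting error only, since reads without molecular identifiers are not independent molecules.

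**Figure D2:**
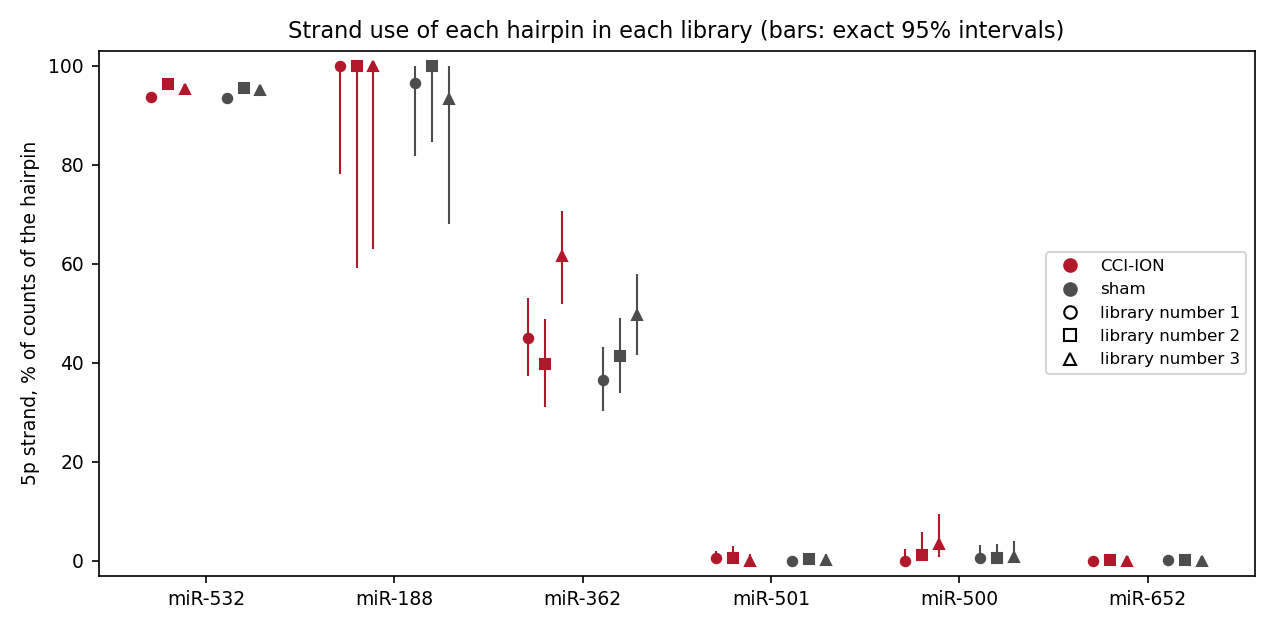
Share of each hairpin's counts that came from the 5p strand (%), per library, with exact 95% binomial intervals; hairpins are in their order on the X chromosome, CCI-ION in red on the left of each pair and sham in grey on the right. miR-532 and miR-188 lay at or above 93.3%, miR-501, miR-500 and miR-652 at or below 3.33%, and miR-362 between 36.6% and 61.6%.

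Setting CCI-ION against sham asks whether these miRNAs differ in the ganglion on the injured side 14 days after nerve constriction. None of the 8 tested members passed the threshold in edgeR's quasi-likelihood test (adjusted p under 0.05 over all miRNAs tested), where 0.648% of all tested miRNAs were called, 0.432% lower in CCI-ION. With the replicate number as a block, 0 of 8 members were called, against 11.7% of all tested miRNAs in either direction and 5.62% lower in CCI-ION. With each tool's usual scaling and all 6 libraries, 0 members had an unadjusted p under 0.05 in edgeR, DESeq2 or limma-voom, with or without the block. The members' log2 fold changes had a median of -0.10, where that of all tested miRNAs was 0.01. Of the 8, 6 were negative with TMM scaling, 4 with upper quartile factors and 8 with the totals behind the deposited RPM values (reads relative to a larger library total), against 48.8%, 35.2% and 85% of all tested miRNAs under the same scalings. Lower values in 3 of 3 same-numbered pairs were seen for 3 of 8 members, miR-532-5p, miR-532-3p and miR-188-5p, against 23.5% of all tested miRNAs. Higher values in 3 of 3 pairs were seen for 1 of 8, miR-362-5p, against 20.1% of all tested miRNAs.

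rno-miR-532-5p stood at 470.8, 794 and 673 CPM in CCI-ION libraries 1 to 3 and at 492, 803 and 736 CPM in sham libraries 1 to 3. The groups overlapped almost fully, and the library numbered 1 was the lowest of each. The means were 646 ± 163 CPM in CCI-ION and 677 ± 164 in sham (SD, n = 3 each). The log2 fold change was -0.07 ± 0.25 (SE; 95% interval -0.67 to 0.53; edgeR adjusted p = 0.980). With the block it was -0.07 ± 0.10 (95% interval -0.28 to 0.14; edgeR adjusted p = 0.743). The sign depended on the setting: the value was 0.02 with upper quartile factors, where the median of all tested miRNAs was 0.09, 0.11 without CCI-ION library 1 and 0.07 without sham library 2.

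Its partner strand rno-miR-532-3p was more even, at 31.8, 31.4 and 33.2 CPM in CCI-ION libraries 1 to 3 and 34.2, 38.9 and 37.3 CPM in sham libraries 1 to 3. Every CCI-ION library lay below every sham library, by a small margin. The group means were 32.1 ± 0.971 CPM in CCI-ION and 36.8 ± 2.40 in sham (SD, n = 3 each). The log2 fold change of -0.20 ± 0.14 (95% interval -0.52 to 0.13) was not called (edgeR adjusted p = 0.813, and 0.494 with the block).

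The lowest tested member, miR-188-5p, had 15, 7 and 8 counts in CCI-ION libraries 1 to 3 and 27, 22 and 14 counts in sham libraries 1 to 3. On the scaled level these were 1.29, 1.13 and 1.08 CPM in CCI-ION and 2.03, 2.24 and 1.41 CPM in sham, and the groups again did not overlap. The log2 fold change of -0.68 ± 0.30 was the largest among the 8 tested members, with a 95% interval of -1.39 to 0.03, and was not called (unadjusted p = 0.0571 and adjusted p = 0.496 in edgeR; adjusted p = 0.284 with the block). At these counts a difference of this size was not resolved. These 2 of 8 members without overlap compare with 13.8% of all tested miRNAs without overlap between the groups in either direction and 7.13% with CCI-ION lower.

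The strands of miR-362 had opposite signs under TMM scaling, neither beyond the spread between libraries. miR-362-3p had 7.67, 12.2 and 5.78 CPM in CCI-ION libraries 1 to 3 and 10.8, 10.3 and 7.73 CPM in sham libraries 1 to 3, so that CCI-ION held both the highest and the lowest value. Its log2 fold change was -0.18 ± 0.31 (edgeR adjusted p = 0.946), and 0.05 without CCI-ION library 3. miR-362-5p had 6.29, 8.04 and 9.28 CPM in CCI-ION and 6.23, 7.23 and 7.63 CPM in sham, a log2 fold change of 0.16 ± 0.23 (edgeR adjusted p = 0.936) that was -0.18 with the totals behind the RPM.

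For the pair that shares the seed AUGCACC the levels were close between groups. rno-miR-501-3p had 38.9, 30.1 and 37.8 CPM in CCI-ION libraries 1 to 3 and 37.2, 35.3 and 38.8 CPM in sham libraries 1 to 3, a log2 fold change of -0.06 ± 0.16 (95% interval -0.43 to 0.31; edgeR adjusted p = 0.947). Its sign turned with upper quartile factors (0.04) and without CCI-ION library 2 (0.06). miR-500-3p had 13.7, 14.6 and 11.7 CPM in CCI-ION and 13.1, 16.7 and 14.0 CPM in sham, a log2 fold change of -0.13 ± 0.18 (95% interval -0.56 to 0.30; edgeR adjusted p = 0.936). The interval of each covers no change.

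miR-652-3p, from the other hairpin, had 200.9, 155 and 170 CPM in CCI-ION libraries 1 to 3 and 182, 162 and 151 CPM in sham libraries 1 to 3. In both groups the library numbered 1 was the highest, the reverse of miR-532-5p. Group means were 175 ± 23.4 CPM in CCI-ION and 165 ± 16.0 in sham (SD, n = 3 each). The log2 fold change was 0.09 ± 0.16 (95% interval -0.29 to 0.46; edgeR adjusted p = 0.947). Without CCI-ION library 1 it was -0.02, and with the totals behind the RPM -0.25.

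**Figure D3:**
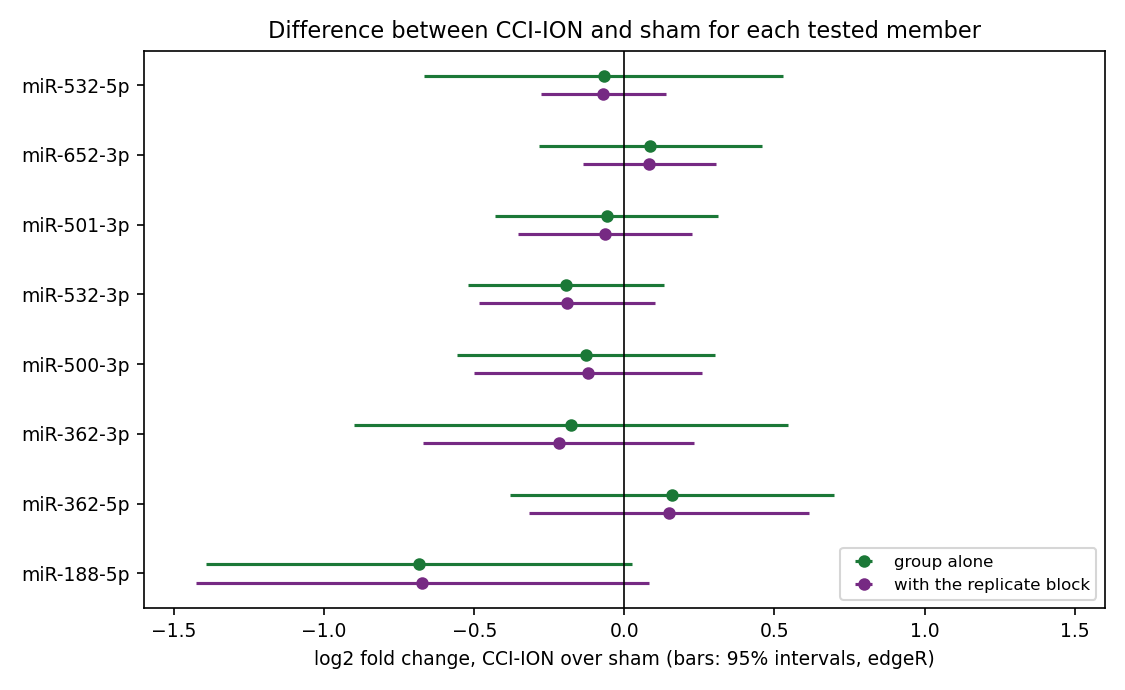
Log2 fold change of CCI-ION over sham for the 8 tested members, in order of mean level, with 95% intervals from edgeR fits with group alone (green) and with the replicate block (purple). Every interval covers 0; that of miR-188-5p runs from -1.39 to 0.03 with group alone.

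Summed over the 10 strands of the 5 hairpins, the cluster reached 571, 892 and 772 CPM in CCI-ION libraries 1 to 3 and 596, 914 and 844 CPM in sham libraries 1 to 3. The CCI-ION value was the lower one in 3 of 3 pairs of the same number (exact sign-flip permutation p = 0.25, the smallest possible). The difference in mean log2 level was -0.07 (two-sided exact permutation p = 0.7, where 0.1 is the smallest possible with 3 libraries a group, and 0.8 adjusted over 4 such measures), and it was 0.02 with upper quartile factors, 0.11 without CCI-ION library 1 and 0.05 without sham library 2. The cluster made up 0.0737% ± 0.0132 of miRNA counts in CCI-ION and 0.0784% ± 0.0134 in sham (SD, n = 3 each).

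The ratio of miR-532-5p to miR-532-3p, with 0.5 added to each count, was 14.8, 25.3 and 20.2 in CCI-ION libraries 1 to 3 and 14.4, 20.6 and 19.7 in sham libraries 1 to 3. The lowest ratio of each group was that of library 1, and the CCI-ION ratio was the higher one in 3 of 3 pairs of the same number (exact sign-flip permutation p = 0.25, the smallest that 3 pairs allow). The mean log2 ratios differed by 0.12 (unpaired exact permutation p = 0.6), and by -0.06 without CCI-ION library 2 and -0.04 without sham library 1. For miR-362, a measure added after seeing the data, the 5p to 3p ratio differed by 0.37 on the log2 scale (exact permutation p = 0.6), and by 0.00 without CCI-ION library 3, so that the difference rested on that library.

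The ratio of miR-500-3p to miR-501-3p was 0.353, 0.488 and 0.311 in CCI-ION libraries 1 to 3 and 0.354, 0.473 and 0.360 in sham libraries 1 to 3. In both groups library 2 had the highest ratio. The mean log2 ratios differed by -0.06 (exact permutation p = 0.8), by 0.08 without CCI-ION library 3 and also by 0.08 without sham library 2. As counted, miR-501-3p was the more abundant of the pair in each library, at 67.3% to 76.4% of their joint level, with the doubt on how shared reads were divided.

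The apparent difference depended on what a library is scaled to. Relative to the totals behind the deposited RPM values, all 8 members were lower in CCI-ION, from -0.18 for miR-362-5p to -1.02 for miR-188-5p on the log2 scale, none of them called without the block. With the block on that scale, edgeR called 3 of 8 members lower, against 33.2% of all miRNAs tested there (34.5% in either direction): miR-532-3p (-0.54, adjusted p = 0.0209), miR-532-5p (-0.42, adjusted p = 0.0357) and miR-188-5p (-1.0, adjusted p = 0.0466). The median of all tested miRNAs on that scale was -0.35 with the block. These totals with the block were the only one of 22 settings tried in which edgeR, DESeq2 or limma-voom called a member; in the others the members' adjusted p ranged from 0.148, for miR-188-5p with these totals and group alone, to 0.999. What else the totals behind the RPM count is not stated. miRNA counts made up 45.4% to 55.8% of them in CCI-ION and 52.3% to 66.6% in sham.

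**Figure D4:**
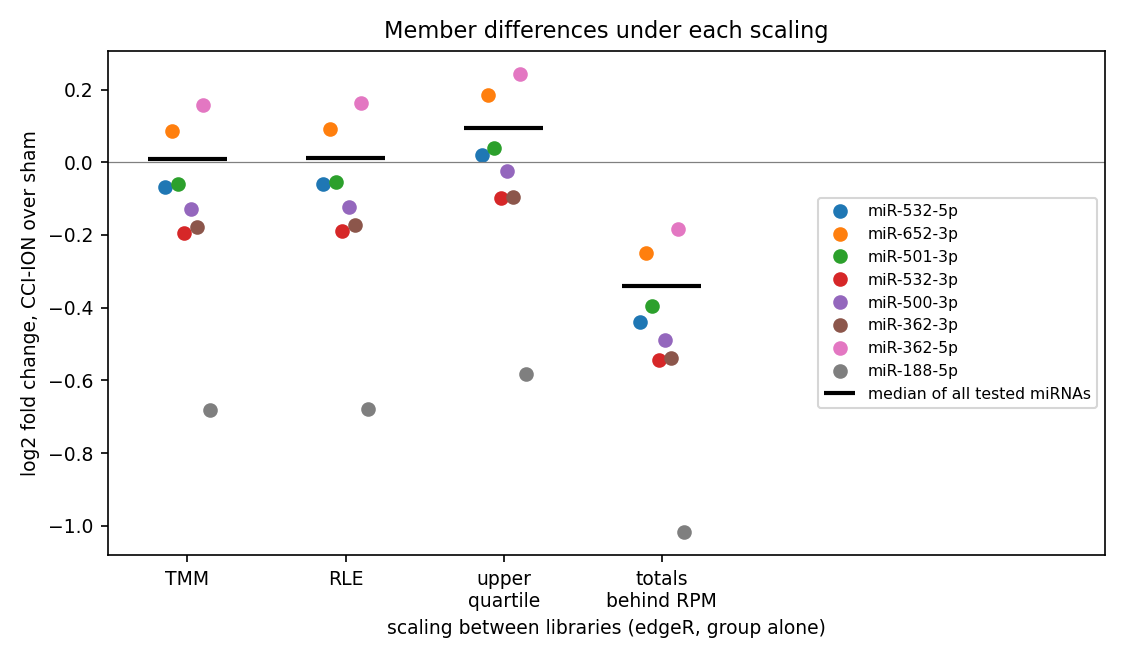
Log2 fold change of CCI-ION over sham for the 8 tested members under 4 scalings between libraries (edgeR, group alone), with the median of all tested miRNAs as a black bar. The members kept their order around the median, which was 0.01 with TMM, 0.09 with upper quartile factors and -0.34 with the totals behind the RPM.

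In some members, as in many of the tested miRNAs, both libraries numbered 1 lay on 1 side of the other 4. miR-532-5p averaged 482 CPM in both libraries numbered 1 and 752 CPM in the other 4, a ratio of 0.641, and miR-362-5p averaged 6.26 and 8.05 CPM, a ratio of 0.779. miR-652-3p went the other way, with 192 CPM in the libraries numbered 1 and 159 CPM in the other 4, a ratio of 1.2. Of all tested miRNAs, 19.7% had both libraries numbered 1 below the other 4, as miR-532-5p and miR-362-5p did, and 21% had both above, as miR-652-3p did. The libraries numbered 1 also had the largest totals behind the RPM, 24259518 in CCI-ION and 24025572 in sham, against 13793797 to 15228984 in the other 4. The part of depth in this pattern was not tested.

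By the root mean square difference between centred log2 levels over the 6 libraries, the miRNA with the profile closest to miR-532-5p among 324 with at least 10 CPM was miR-34c-5p, a p53-induced miRNA. It had 76.7, 128 and 111 CPM in CCI-ION libraries 1 to 3 and 76.8, 128 and 113 CPM in sham libraries 1 to 3. The root mean square difference was 0.03 log2 units for it, 0.09 for miR-200a-3p, an epithelial miRNA, and 0.09 for miR-140-3p, known from cartilage, where the median of all candidates was 0.36. The members were no closer to miR-532-5p than many unrelated miRNAs: 31% of the candidates were closer than miR-532-3p, from the same hairpin, and 58% were closer than miR-501-3p, from the same cluster. miR-362-5p was the nearest member, with 21% of the candidates closer. The members were not held to the 10 CPM floor of the candidates, and miR-362-5p averaged 7.45 CPM. This measure is a description over 6 libraries whose numbers recur in both groups and whose depth differs.

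**Figure D5:**
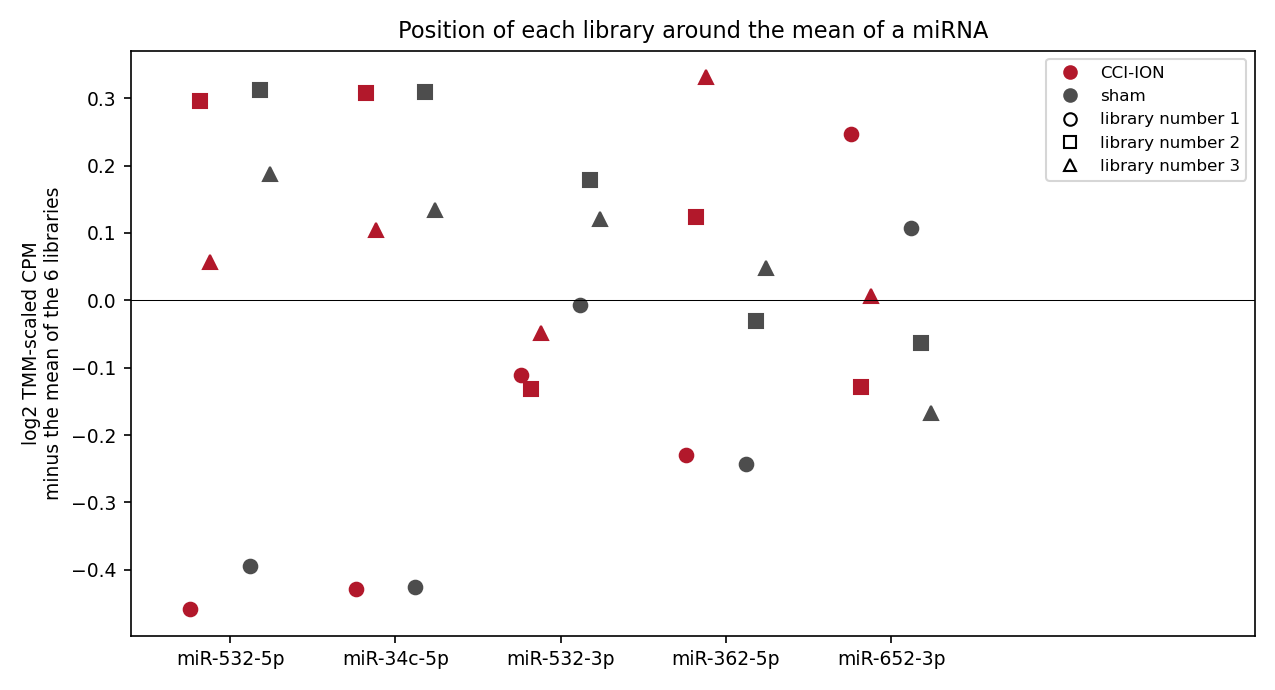
Log2 TMM-scaled CPM of each library minus the mean of the 6 libraries, for miR-532-5p, miR-34c-5p, miR-532-3p, miR-362-5p and miR-652-3p, with CCI-ION in red on the left and sham in grey on the right of each pair. Circles, the libraries numbered 1, lie lowest for miR-532-5p, miR-34c-5p and miR-362-5p and highest for miR-652-3p. For miR-532-3p the 3 CCI-ION libraries lie below the 3 sham libraries.

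A target site is read through the seed, so levels were also summed by seed. miR-532-5p held 99.7% to 99.9% of the level of the seed AUGCCUU in each library. The rest was miR-511-5p, whose host gene Mrc1 encodes a mannose receptor of macrophages. miR-511-5p (cAUGCCUUuugcucugcacuc) had 1.29, 2.09 and 2.15 CPM in CCI-ION libraries 1 to 3 and 1.5, 1.02 and 0.502 CPM in sham libraries 1 to 3, a log2 fold change of 0.81 ± 0.44 that was not called (edgeR adjusted p = 0.656). The summed level of the 5 leukocyte miRNAs was 284.2 to 331 CPM in CCI-ION and 222.3 to 266.2 CPM in sham. Its part in the miR-511-5p value was not tested. The sums of all other cell type lists looked at overlapped between the groups. For miR-362-3p the balance was the opposite. It made up 3.54% to 7.95% of its seed ACACACC, and the rest was miR-329-3p (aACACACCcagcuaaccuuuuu) of the imprinted Dlk1-Dio3 region, with 152 ± 9.29 CPM in CCI-ION and 163 ± 24.0 in sham (SD, n = 3 each; edgeR adjusted p = 0.946). The joint level of the seed AUGCACC was 48.9 ± 3.96 CPM in CCI-ION and 51.7 ± 1.27 in sham.

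Other X-linked miRNAs were taken from a fixed list of stems known from rodents, 61 rows of the table, of which 37 were tested. With group alone edgeR called 0 of 37, and DESeq2 and limma-voom called 0. In edgeR with group alone, 3 of the 37 had an unadjusted p under 0.05, as did 46 of all tested miRNAs. Those tested are the 650 listed without the 187 left out by the filter, so the share in the X-linked list was not the higher one. With the block, 2 of 37 were called higher and 0 lower, where 11.7% of all tested miRNAs were called. miR-351-5p averaged 617 ± 14.1 CPM in CCI-ION and 458 ± 32.8 in sham (log2 fold change with the block 0.43 ± 0.10, edgeR adjusted p = 0.00181). miR-221-3p, known from studies of nerve injury, averaged 373 ± 72.4 CPM in CCI-ION and 269 ± 20.2 in sham (0.45 ± 0.11 with the block, edgeR adjusted p = 0.00231; limma-voom with the block gave 0.055). These calls depended on libraries and scaling: edgeR with the block called 0 once both number 3 libraries were left out, and only miR-351-5p without those numbered 2. Scaled to the totals behind the RPM, edgeR with the block called 10 of the list, where 34.5% of all miRNAs tested there were called in either direction. Neither miR-351-5p nor miR-221-3p was among these 10 (edgeR adjusted p = 0.657 for miR-351-5p and 0.604 for miR-221-3p). The most abundant of the list, miR-676, had 3581 ± 1394 CPM in CCI-ION and 3480 ± 930 in sham, and miR-98-5p, of the let-7 seed family, had 1444 ± 76.2 CPM in CCI-ION and 1287 ± 129 in sham; neither was called. The median log2 fold change of the 37 was 0.10, against -0.10 for the 8 members.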

How the data were processed

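Small RNA libraries of 3 CCI-ION and 3 sham trigeminal ganglia were compared. The authors deposited raw counts per mature miRNA and, per library, RPM values equal to the deposited counts times 1 constant. Dividing by that constant turned 100% of the RPM values into whole reads (tolerance 0.01 read), each equal to its count. A count test on these recovered reads would be the same test and was not run again. Per the submitters' processing notes, cutadapt 1.14, Bowtie 1.1.1 and rn6 were used; which program counted reads, and on which annotation, is not given. No rn6 annotation was used here, so no coordinates are given.

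Counts were tested with edgeR 4.0.16 (quasi-likelihood F test, robust, TMM, filterByExpr, group alone) in R 4.3.3 with Benjamini-Hochberg adjustment over all miRNAs kept; 187 of 650 were left out, and the procedure was tested on simulated counts. Alternatives were DESeq2 1.42.0, limma-voom (limma 3.58.1), other scalings, no filter, left-out libraries and the replicate number as a block. Deviations from group means of same-numbered libraries correlated at 0.664, 0.591 and 0.457, and those of differently numbered libraries at -0.614 to 0.166. The numbers were therefore taken to pair the libraries, but what they stand for is not given. These correlations come from the same counts that the block fit tests, and do not show that the design was paired. The deviations of a miRNA within a group cancel in sum, so positive correlations for same-numbered libraries push the others towards negative values. Intervals use the fit's SE and degrees of freedom. In edgeR the median prior degrees of freedom, added from the spread of all miRNAs, were 3.30 with group alone and 54.5 with the block. The block intervals and p-values of edgeR thus rest mostly on spread shared over miRNAs, not on the pairs of each miRNA. Named miRNAs were all members, the 3 with the profile nearest to the most abundant member, those sharing a seed, and the called and 2 most abundant of the X-linked list. The members and lists were chosen with earlier results of these data known.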

Additional observations from a re-analysis of the deposited data

How the results depend on the processing

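The number of miRNAs called over the whole table was 3 with group alone and 6 without the filter or with the totals behind the RPM, 9 with DESeq2, 54 with the replicate block, 44 and 39 with DESeq2 and limma-voom with the block, 51 with RLE and 60 with upper quartile factors with the block, and 156 with the totals behind the RPM with the block (the last 3 chosen after seeing the data). Leaving out 1 library gave 1 to 7 calls, and leaving out both libraries of a number with the block gave 45 (number 1), 31 (number 2) and 5 (number 3). Among the members, the block changed no call under TMM, RLE or upper quartile scaling. Only the totals behind the RPM with the block did, with log2 fold changes of -0.42 for miR-532-5p, -0.54 for miR-532-3p and -1.0 for miR-188-5p.

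Signs of uncalled values turned under some scalings. Upper quartile factors gave 0.021 for miR-532-5p (also 0.021 with the block), 0.040 for miR-501-3p (0.026 with the block) and 0.016 for the summed cluster. Totals behind the RPM gave -0.18 for miR-362-5p (-0.19 with the block) and -0.25 for miR-652-3p (-0.26 with the block). The cause was not tested beyond the shift of all miRNAs that each scaling makes.

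Leaving out 1 library moved the log2 fold change over -0.25 to 0.11 for miR-532-5p, -0.50 to 0.052 for miR-362-3p, -0.13 to 0.059 for miR-501-3p and -0.024 to 0.18 for miR-652-3p. It moved the summed cluster over -0.26 to 0.11, the log2 strand ratio of miR-532 over -0.060 to 0.33 and of miR-362 over -0.0032 to 0.63, and the ratio of miR-500-3p to miR-501-3p over -0.24 to 0.082. With the block and without both libraries of a number, miR-501-3p ranged over -0.13 to 0.022. miR-532-3p stayed between -0.25 and -0.16, miR-500-3p between -0.20 and -0.026, miR-362-5p between 0.038 and 0.30 and miR-188-5p between -0.85 and -0.56 when 1 library was left out. miR-188-5p had 7 to 27 counts a library, the fewest of the tested members, and the 4 strands with at most 3 counts a library could not be compared.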
